A study of Mus musculus with 12 samples.

Results

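Chemokines, interleukins and their receptors were followed in the dermal papilla (DP), the cluster of mesenchymal cells at the base of the hair follicle, in control mice and in mice lacking the FGF receptors Fgfr1 and Fgfr2 in the DP (dMF1/2). The set holds each gene whose symbol begins with Ccl, Cxcl, Ccr, Cxcr, Ackr or Il followed by a number, with Il17rd left out, and that had a row in the tables of both days. There were 78 such genes among 14986 genes in both tables. They comprised 10 CC chemokines, 9 CXC chemokines, 6 chemokine receptors, 4 atypical chemokine receptors, 15 interleukins, 27 interleukin receptors, 6 antagonists, binding proteins or decoys, and the enzyme gene Il4i1. The symbols Il17b, Ccl6 and Ccl22 were in the P14 table alone and Il17re in the P16 table alone, with at most 6.72 normalized reads in any library, and these were not followed further.

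RNA was sequenced from DP cells of 3 control and 3 dMF1/2 mice at postnatal day 14 (P14) and of as many at P16, both within anagen, the growth phase of the first hair cycle, for 12 libraries of 1 mouse each. The dMF1/2 mice carried Cor-cre, a Cre allele active in the DP after birth, with floxed alleles on both copies of Fgfr1 and of Fgfr2. The labels name the controls wild type, whereas the methods describe control mice either with Cor-cre and 1 floxed copy of each receptor gene or without Cre and with floxed alleles on both copies. Cells of all 4 groups were sorted from dissociated skin for YFP made from a Cre-dependent ROSA26 reporter, which cells without Cre would not make. Sorted control cells would then come from mice of the first kind and would themselves have lost 1 copy of each receptor gene, so that the comparisons would be of both copies lost with 1 copy lost, although the genotype of each control library is not given in the sources used here. Reads were counted over whole genes and scaled over the 12 libraries, and the values below are these normalized reads unless a scale per kilobase of merged exons is named. A log2 ratio is that of dMF1/2 over control mice, and a log2 change that of P16 over P14.

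Chemokines are small secreted proteins that guide migrating cells by binding receptors coupled to G proteins. Atypical chemokine receptors bind the same ligands without that coupling and take many of them up. Interleukins act on receptor chains that often share a subunit, such as gp130 (Il6st) in the IL-6 family and the accessory chain Il1rap in the IL-1 family, and soluble or signalling-deficient chains serve as decoys. In skin these families are best known from immune surveillance and from the recruitment of leukocytes to wounds and to follicles, and fibroblasts are among their sources.

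The libraries held 19302358 to 29860750 reads. Fgfr1 had 7855 to 12337 normalized reads in the 6 control libraries and 6121 to 7837 in the 6 dMF1/2 libraries, and Fgfr2 had 4547 to 5279 and 3704 to 5470 with overlapping groups, where reads outside a deleted exon are counted as well. Both P14 libraries numbered 1, of either genotype, stood apart, with 7.06% and 9.15% of reads from Col1a1 against 13.1% to 17.7% in the other 10. The P16 control library numbered 1 had the lowest level of the papilla marker Corin, 2736 normalized reads against a median of 21693 over all libraries. Fewer cells of a type and less RNA per cell cannot be told apart in such sorted bulk samples. All p-values measure the spread between mice, 3 a group. For genotype ratios that spread came from the 6 libraries of a day. For day changes and the interaction it came from all 12 libraries together. A day change in either genotype thus also rests on the libraries of the other.

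Of the 78 genes, 17 averaged 1000 or more normalized reads over the 12 libraries, 14 had 100 to 1000, 33 had 10 to 100, and 14 had under 10 and were not tested across days. Per kilobase of merged exons, the highest levels were those of Cxcl14 (2419.6 normalized reads per kilobase), Cxcl1 (1707), Ccl11 (1624), Ccl7 (1337) and Il6st (1326), so that 4 of the first 5 were chemokines. They were followed by Ackr3 (725), Ccl2 (622), the decoy Il1r2 (591), Il6 (541) and Cxcl12 (440.0). Neighbours in this order could not be told apart by their spread, since in 76 of 77 neighbouring pairs the ranges over the 12 libraries overlapped. The exception was Il6st, whose lowest library (1073 normalized reads per kilobase) lay above the highest library of Ackr3.

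**Figure D1:**
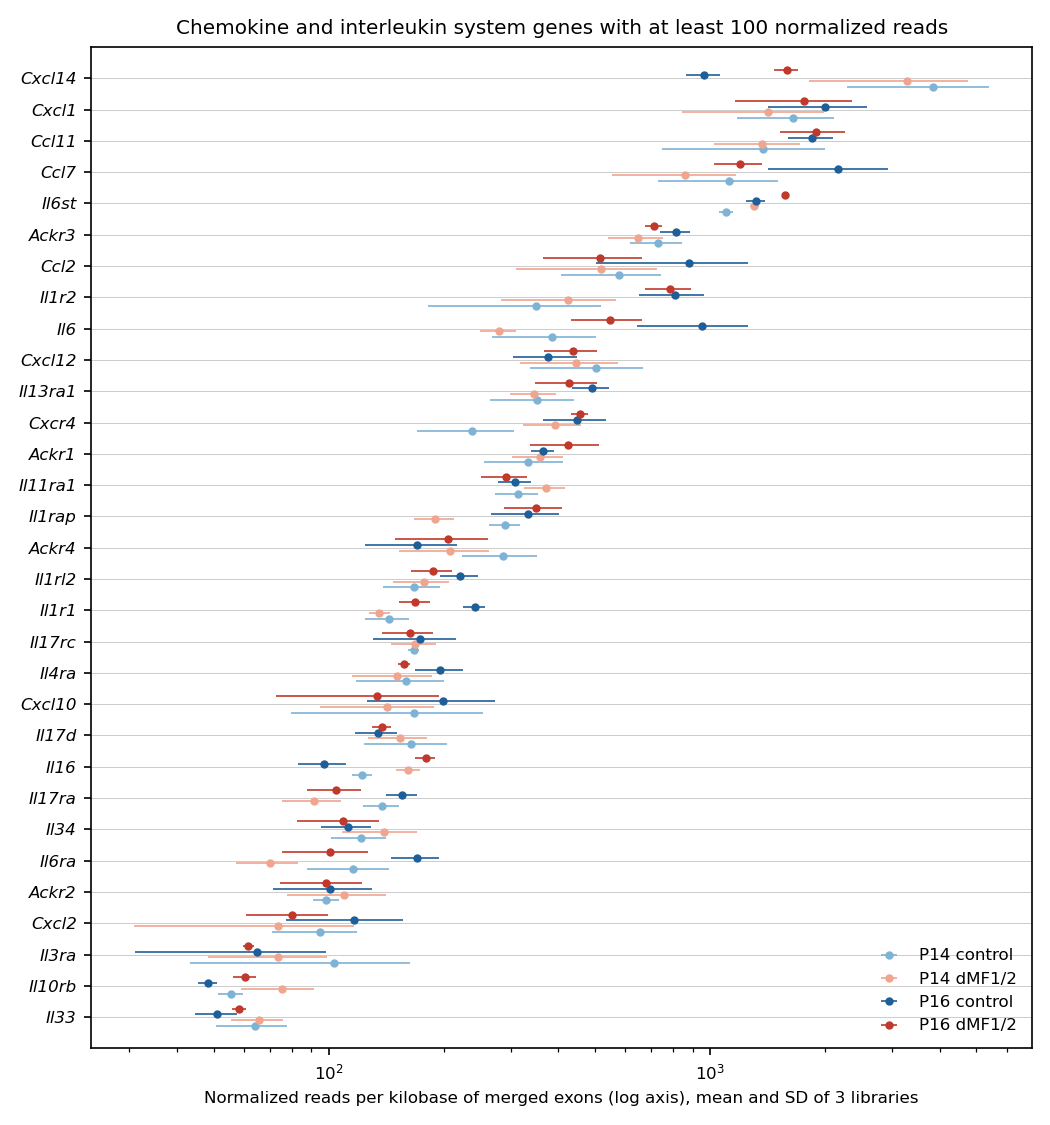
Levels of the 31 genes whose mean reached 100 normalized reads, in normalized reads per kilobase of merged exons on a log axis, where each point is the mean and each bar the SD of 3 libraries in one of the 4 groups. Cxcl14 heads the order and its points for both P14 groups lie to the right of those for both P16 groups.

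Several usual partners of these ligands and receptors were not in the set. Il1a and Il1b, which encode ligands of Il1r1, and Il17a, a ligand of Il17ra and Il17rc, were not among the 78 genes, while these receptor chains had means of 1097, 1059.6 and 448. Il17f, another ligand of the IL-17 receptor pair, was in the set at a mean of 6.87. Likewise Ccr2 and Ccr3, the usual receptors of Ccl2, Ccl7 and Ccl11, and Cxcr3, that of Cxcl9 and Cxcl10, were not among them. Both ends of one axis were present at high levels, with Cxcl12, its signalling receptor Cxcr4 and its scavenging receptor Ackr3 at means of 3598, 693 and 2429 normalized reads. The neutrophil chemokine receptor Cxcr2 had a mean of 43.5 and the lymphocyte receptors Cxcr5, Ccr9, Ccr10 and Cxcr6 had 28.8 or less.

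The genotypes differed in few of these genes. At P16, 3 of the 64 genes tested passed limma's adjusted p of 0.05 (4.69%), against 4.32% of all 13457 genes tested, and these were Il16 and Cxcl14, higher in dMF1/2 mice (2.18% of all genes were called higher), and Il1r1, lower (2.14%). At P14, 0 of 65 passed in limma, where 0.0525% of all 13334 genes did (0.015% higher and 0.0375% lower), while 9 of the 65 (13.8%) had an unadjusted p under 0.05 against 7.32% of all genes. On the recovered reads at P14, DESeq2 called 1 of these genes (1.55% of all genes) and edgeR 0 (0.0525%), and at P16 they called 9 (8.33%) and 3 (4.48%). DESeq2's gene at P14 was Il1rap, and at P16 it added Ccl19, Ccl7, Cxcl5, Il17ra, Il6 and Il6ra to the 3. At P16, 16 of the 64 (25.0%) had an unadjusted p under 0.05 against 19% of all genes, 7 higher and 9 lower in dMF1/2 mice. The groups did not overlap for 9 of 65 genes at P14 and 16 of 64 at P16, where 12.7% and 24.5% of all genes did not, so that the shares of these genes were near the background. Their median log2 ratio was 0.02 at P14 and -0.04 at P16, against 0.0048 and -0.0043 over all genes tested.

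The libraries with the same number were correlated within a day, and with that number as a block limma called 4 of the 65 genes at P14 (1.68% of all genes) and 10 of the 64 at P16 (10.4% of all genes). The 4 genes were Il1rap (adjusted p = 0.0119 with the block), Il17ra (0.0154) and Il6ra (0.0185), lower in dMF1/2 mice, and Cxcr4 (0.0146), higher. At P16 the block added to the 3 genes above Il17ra (adjusted p = 0.00649), Il6ra (0.00527), Ccl7 (0.0281), Ccl19 (0.0382) and Il7 (0.0414), lower in dMF1/2 mice, with Cxcl5 (0.0198) higher and Cxcl10 lower. Il17ra and Il6ra were thus called as lower on both days with the block.

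**Figure D2:**
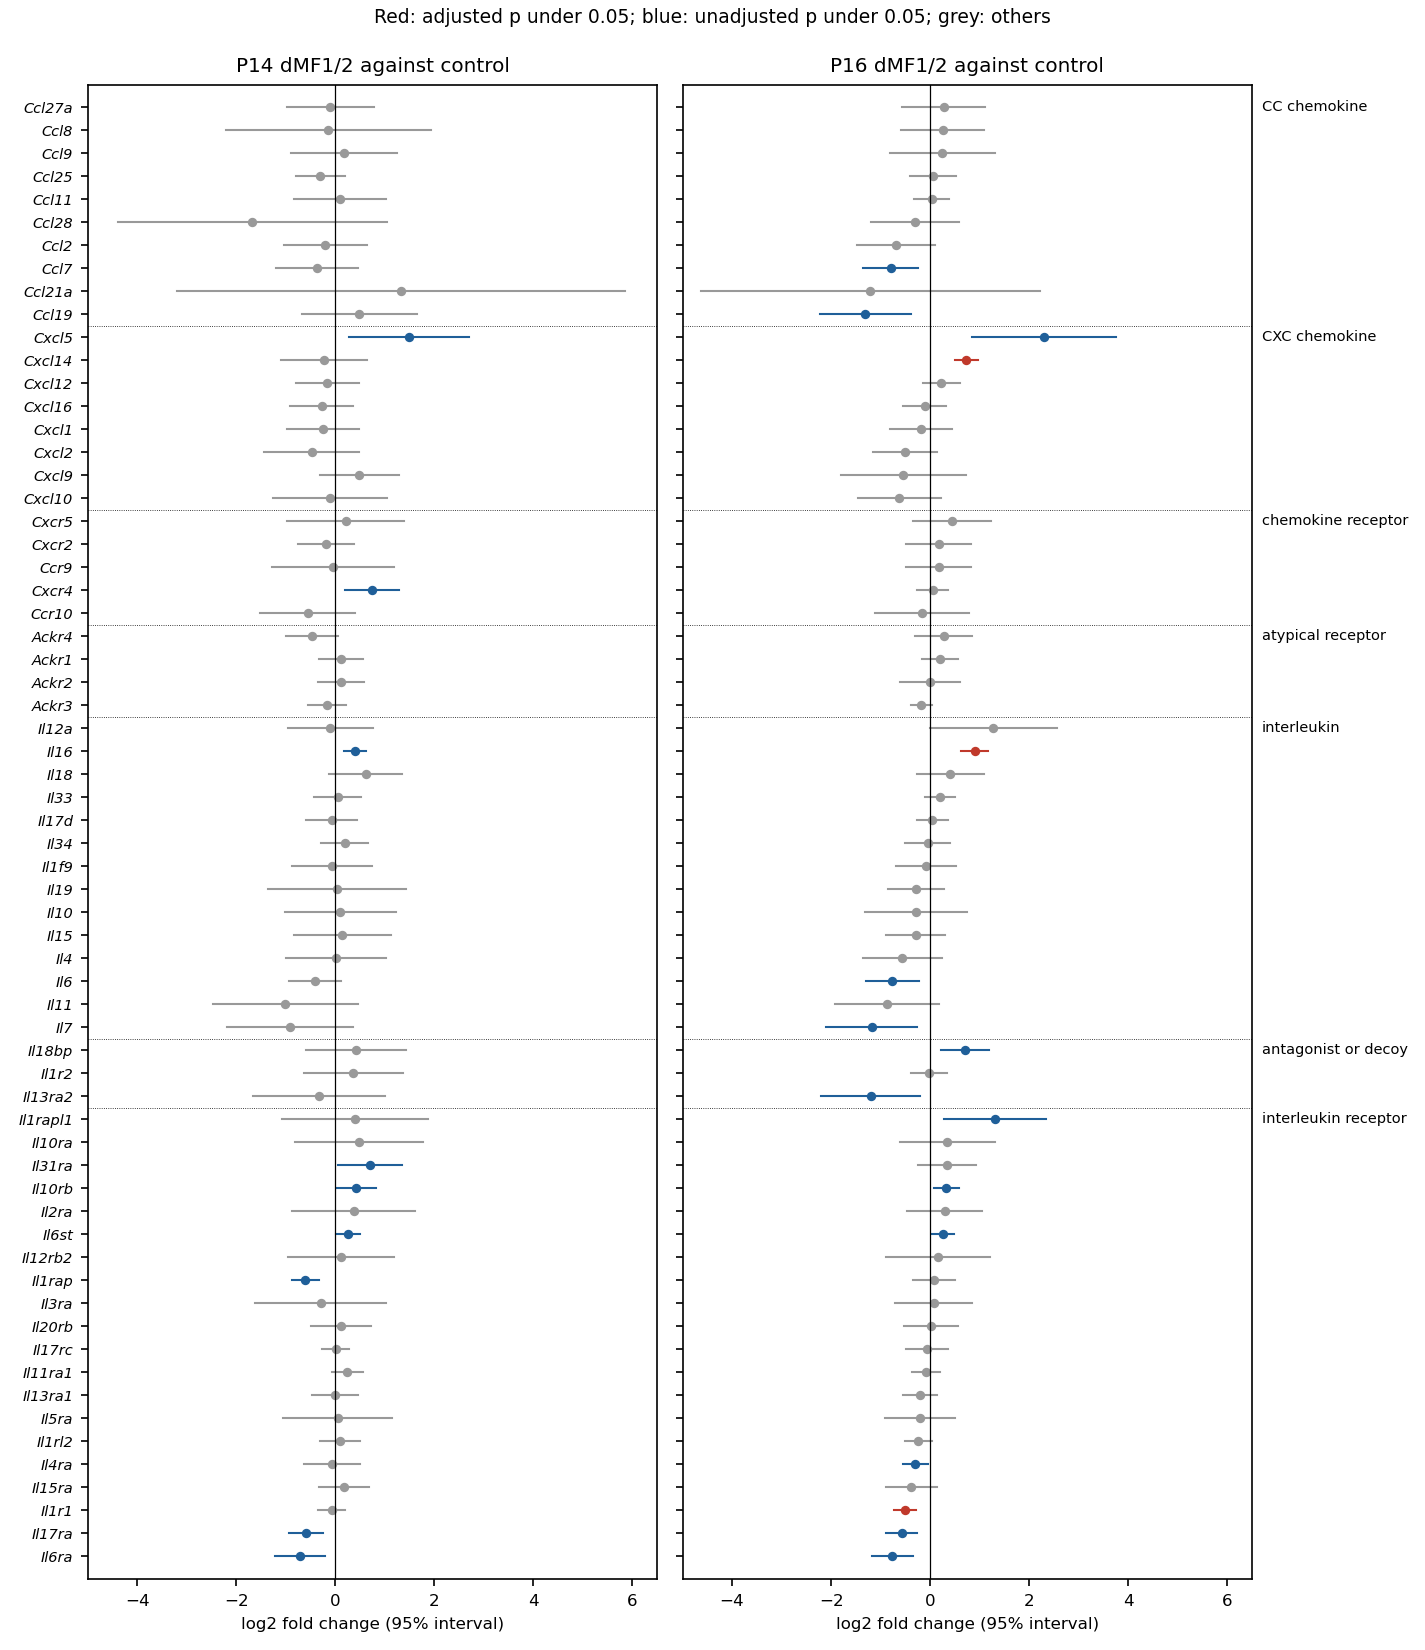
Log2 ratios of dMF1/2 over control mice with 95% intervals from limma for 64 genes, by role, at P14 (left) and P16 (right). At P16, 3 genes are red for an adjusted p under 0.05 without the block, namely Cxcl14, Il16 and Il1r1, and the intervals of genes with few reads such as Ccl21a are the widest.

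Between P14 and P16, 5 of the 64 genes changed in control mice (7.81%), against 14.5% of all 13415 genes tested. Il1r1, Il6, Cxcr4 and Il1r2 rose, where 6.26% of all genes did, and Cxcl14 fell, where 8.28% did. In dMF1/2 mice 1 of the 64 changed (1.56%), against 5.8% of all genes (1.83% higher and 3.97% lower), and this was Il1rap, which rose. An unadjusted p under 0.05 was found for 15 of the 64 in control mice (31.9% of all genes) and 12 in dMF1/2 mice (22.8%). In the control change DESeq2 called 9 (19.2% of all genes), edgeR 6 (15.1%) and limma with a block on the replicate number 8 (16.7%), and in the dMF1/2 change 4 (9.92%), 1 (5.72%) and 4 (7.04%). That block was shared by both days, although same-numbered libraries did not deviate together across days. Over the 64 genes the day change had a median of 0.28 on the log2 scale in control mice and 0.09 in dMF1/2 mice, against 0.01 and 0.0094 over all genes, and the groups did not overlap for 15 genes (36% of all genes) and 10 genes (27.6% of all genes). The difference between the genotypes in this change, tested as an interaction of genotype and day, passed for 0 of the 64 in limma (0% of all genes), edgeR (0%) and DESeq2 (0.0522%), and 6 of the 64 (9.38%) had an unadjusted p under 0.05 in limma against 4.83% of all genes. With 0 genes called in the interaction, none of the changes below was shown to differ between the genotypes. The P16 control libraries enter both the P16 genotype comparison and the control change, so that these do not bear on each other independently.

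**Figure D3:**
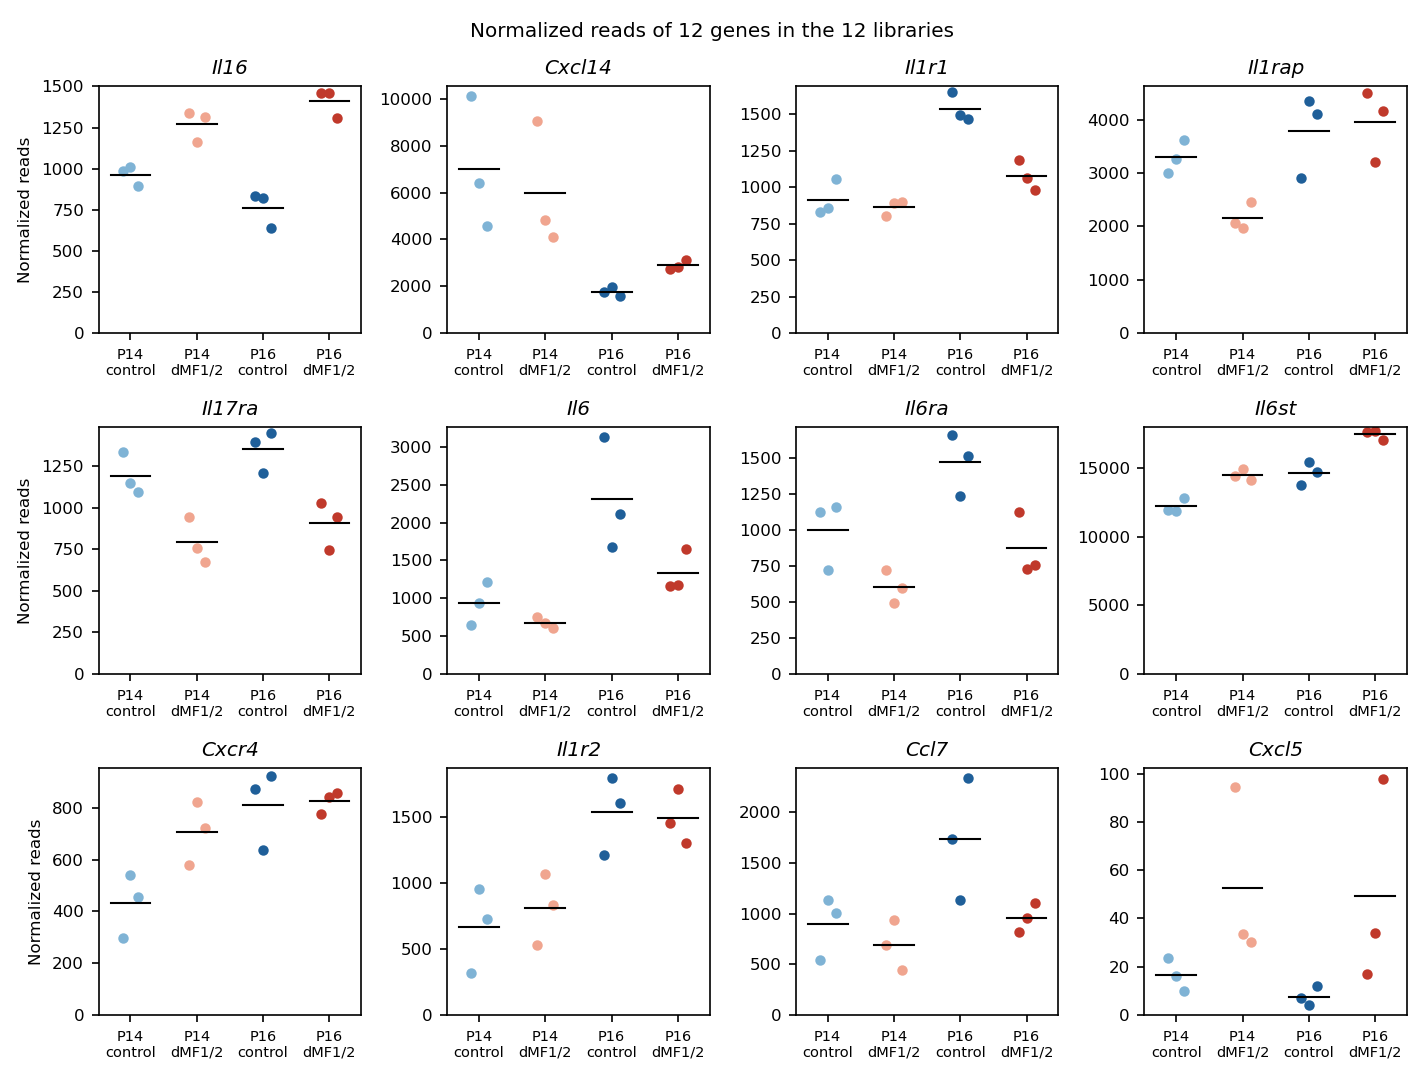
Normalized reads of 12 genes in each of the 12 libraries (points) with the mean of 3 libraries (lines), on linear axes that start at 0. The P16 groups are apart for Il16, Cxcl14 and Il1r1, both P14 libraries with the highest Cxcl14 are those numbered 1, and a single dMF1/2 library on each day carries most of the Cxcl5 level.

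Among the CXC chemokines, Cxcl14 (ENSMUSG00000021508, chromosome 13 of GRCm38, 56288647 to 56296551), a chemokine made constitutively in skin, was the highest per kilobase. At P14 it had 10129, 6395 and 4552 normalized reads in control mice, and 9059, 4813 and 4115 in dMF1/2 mice, with the highest value of each genotype in the library numbered 1. At P16 it had 1735, 1951 and 1593 normalized reads in control mice, and 2748, 2819 and 3138 in dMF1/2 mice, so that each P16 library lay below each P14 library and each dMF1/2 library above each control library at P16. Its log2 change from P14 to P16 in control mice was -1.92 (SE 0.30, adjusted p = 0.00321 in limma), a 3.79-fold fall. The fall was -1.62 without both P14 libraries numbered 1 (adjusted p in limma = 7.25e-04). In dMF1/2 mice the log2 change was -0.96 (adjusted p = 0.0811 in limma) with no overlap between the days, and without both of those libraries it was -0.62 (adjusted p in limma = 0.038). DESeq2 called the fall in dMF1/2 mice (-1.05, adjusted p = 0.0112), and edgeR did not. At P16 Cxcl14 was 1.66-fold higher in dMF1/2 than in control mice, a log2 ratio of 0.73 (SE 0.10, adjusted p = 0.00972 in limma), and this call was lost in a joint fit of the 12 libraries (adjusted p = 0.222). At P14 the groups overlapped, with a log2 ratio of -0.24 and a 95% interval of -1.11 to 0.64.

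In the control change and at P16, most of the papilla marker genes that were called moved with Cxcl14. Of 18 papilla markers, 9 fell and 1 rose in control mice from P14 to P16, and at P16 6 were higher and 2 lower in dMF1/2 mice. Over all genes, 8.28% fell and 6.26% rose in control mice, and 2.18% were higher and 2.14% lower at P16. In the dMF1/2 change, where Cxcl14 fell without overlap, 0 of the 18 were called (5.8% of all genes). The median log2 change of the markers there was -0.22. The summed marker level was 164923 to 241622 normalized reads in P14 control libraries, 142935 to 248305 in P14 dMF1/2 libraries, 99640 to 143197 in P16 control libraries and 153936 to 216795 in P16 dMF1/2 libraries. The part of the marker levels in the Cxcl14 values was not tested.

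Cxcl12, the ligand of Cxcr4, had 5662, 3202 and 3464 normalized reads in control mice and 4816, 2837 and 3264 in dMF1/2 mice at P14, and 2497, 3669.5 and 3070.3 in control mice and 3509, 4146 and 3036 in dMF1/2 mice at P16. The groups overlapped on both days, with log2 ratios of -0.16 (adjusted p = 0.988 in limma) at P14 and 0.22 (adjusted p = 0.53 in limma) at P16. Cxcl1, which attracts neutrophils through Cxcr2, had 3022, 2236 and 4001 normalized reads in control mice and 3892, 2196 and 1887 in dMF1/2 mice at P14, and 3829, 2633 and 4811 in control mice and 3004, 2352 and 4542 in dMF1/2 mice at P16. Its values varied as much within as between groups, with log2 ratios of -0.24 (95% interval -0.97 to 0.48) at P14 and -0.19 (-0.82 to 0.44) at P16. Cxcl2, another Cxcr2 ligand and the neighbour of Cxcl1, had a mean of 189 normalized reads and a log2 ratio of -0.51 at P16 with overlapping groups.

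Cxcl5, the third Cxcr2 ligand in the set, was present at low levels, with 23.6, 16.3 and 9.88 normalized reads in control mice and 94.6, 33.4 and 30.3 in dMF1/2 mice at P14, and 6.88, 4.08 and 12 in control mice and 16.9, 33.9 and 97.6 in dMF1/2 mice at P16. Every dMF1/2 library lay above every control library of its day, and 1 dMF1/2 library a day, numbered 1 at P14 and 3 at P16, held over 90 normalized reads. The log2 ratios were 1.49 (SE 0.51, adjusted p = 0.549 in limma) at P14 and 2.30 (SE 0.63, adjusted p = 0.0888 in limma) at P16, a 4.94-fold difference on the log2(value + 1) scale. Without 1 library they ran from 0.98 to 1.78 (adjusted p = 0.616 to 0.999) at P14 and from 1.64 to 2.87 (adjusted p = 0.0583 to 0.219) at P16, the smallest without the high dMF1/2 library of each day. DESeq2 called the P16 ratio (2.70, adjusted p = 0.00137). Cxcl9, Cxcl10 and Cxcl16 had means of 24.5, 361 and 43.7 normalized reads and did not pass the test in any comparison without the block. Cxcl13 had a mean of 7.99, with 47.7 normalized reads in the P14 dMF1/2 library numbered 1 and at most 8.49 in any other.

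Among the CC chemokines 0 of 10 passed in any of the 5 comparisons in limma without the block, with a median day change of 0.55 on the log2 scale in control mice. Ccl11 (eotaxin), which attracts eosinophils, had 727, 1704 and 2031 normalized reads in control mice and 1056, 1652 and 1748 in dMF1/2 mice at P14, and 1849, 2314 and 1853 in control mice and 2024, 2461 and 1669 in dMF1/2 mice at P16. Its lowest values on P14 were those of the libraries numbered 1, and its log2 ratio at P16 was 0.03 with a 95% interval of -0.32 to 0.38. Ccl7, which attracts monocytes, had 543, 1138 and 1008 normalized reads in control mice and 688, 936 and 445 in dMF1/2 mice at P14, and 1734, 1139 and 2343 in control mice and 822, 954 and 1102 in dMF1/2 mice at P16. At P16 each control library was above each dMF1/2 library, the nearest pair being 1139 and 1102, and at P14 the groups overlapped. Its log2 ratio was -0.80 (SE 0.24, adjusted p = 0.109 in limma) at P16, and it ran from -1.07 to -0.56 (adjusted p = 0.0172 to 0.274) without 1 library. It passed without the P16 control library numbered 2, the omission with the largest difference, and was the smallest without the P16 control library numbered 3. DESeq2 called it as well (adjusted p = 0.0061). Its log2 change in control mice was 0.96 (adjusted p = 0.0741 in limma) and ran from 0.64 to 1.24 (adjusted p = 0.0417 to 0.249) without 1 library, the smallest without the P14 control library numbered 1, and passed without the P16 control library numbered 2. DESeq2 called this change too (adjusted p = 0.0237).

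Ccl2, the monocyte chemoattractant next to Ccl7, had a mean of 1003 ± 431 normalized reads (SD, n = 3) in control and 585 ± 169 in dMF1/2 mice at P16, with overlapping groups. Ccl19, a ligand of Ccr7, had 24.5, 38.1 and 108 normalized reads in control mice and 66.5, 68.9 and 61.7 in dMF1/2 mice at P14, and 87.8, 51 and 52.1 in control mice and 31.7, 12.8 and 34.3 in dMF1/2 mice at P16. At P16 each dMF1/2 library lay below each control library, with a log2 ratio of -1.31 (SE 0.40, adjusted p = 0.116 in limma), while at P14 the groups overlapped. Reads of Ccl19 and Ccl21a may be shared with near-identical gene copies on chromosome 4, so that their counts are uncertain. Ccl21a had 46.2 normalized reads in the P14 control library numbered 1, 137 in the dMF1/2 library of that number and 61.2 in the P16 control library numbered 2, with at most 16.9 in the other 9. Ccl8 had a mean of 97.6 normalized reads, with 16 and 24.7 in the P14 libraries numbered 1 against 50.5 or more in the other 10. The means of Ccl25, Ccl28, Ccl27a and Ccl9 ranged from 17.5 to 70.0.

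Ccl2, Ccl7, Ccl11 and Ccl8 lie in this order within 81.2 kb of chromosome 11. Their log2 ratios at P16 were -0.70, -0.80, 0.03 and 0.26, and their changes in control mice from P14 to P16 were 0.55, 0.96, 0.55 and 0.77. Cxcl5, Cxcl1 and Cxcl2 lie within 147 kb of chromosome 5, and their log2 ratios at P16 were 2.30, -0.19 and -0.51. Limma without the block called none of these values, while the block called the P16 ratios of Ccl7 and Cxcl5, as given above. The P16 ratios were of both signs in either cluster, and the control changes of the 4 chromosome 11 genes were all positive.

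**Figure D4:**
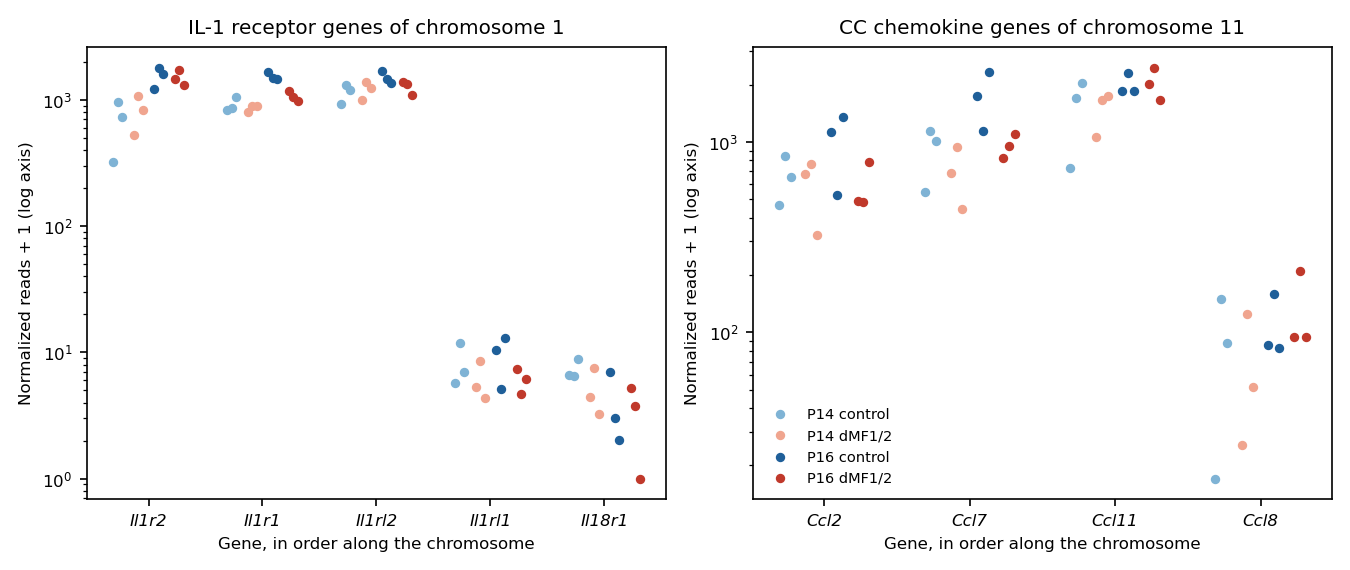
Normalized reads plus 1, on log axes, in each of the 12 libraries for 5 IL-1 receptor family genes of chromosome 1 (left) and 4 CC chemokine genes of chromosome 11 (right), in order along the chromosome. Il1r2, Il1r1 and Il1rl2 lie above 300 normalized reads in all libraries while Il1rl1 and Il18r1 lie far below them, and Ccl8 is the lowest of its 4 genes.

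Il16 (ENSMUSG00000001741, chromosome 7 of GRCm38, 83642825 to 83745726) encodes a precursor from which the CD4 ligand IL-16 is cleaved. It had 983, 1010.2 and 897 normalized reads in control mice, and 1336, 1163 and 1314 in dMF1/2 mice at P14, and 831, 819 and 638 normalized reads in control mice, and 1462, 1462 and 1311 in dMF1/2 mice at P16. The dMF1/2 libraries lay above the control libraries on both days without overlap, and the lowest values of all were those of the P16 controls. At P16 Il16 was 1.87-fold higher in dMF1/2 mice, a log2 ratio of 0.90 (SE 0.12, adjusted p = 0.00861 in limma), and the call was kept without any single P16 library, with adjusted p-values of 0.0106 to 0.0330. At P14 its log2 ratio was 0.40 (SE 0.09, adjusted p = 0.292 in limma). From P14 to P16 its log2 change was -0.35 (adjusted p = 0.0547 in limma) in control mice, without overlap, and 0.15 (adjusted p = 0.45 in limma) in dMF1/2 mice. The control change passed with edgeR (-0.35, adjusted p = 0.0493) and DESeq2 (-0.33, adjusted p = 0.0379). It also passed in limma after TMM scaling (adjusted p = 0.047) and with the block (0.0391). It did not pass with either other pseudocount, without the filter or in a fit of the 6 control libraries. In limma it ran from -0.41 to -0.22 (adjusted p = 0.0551 to 0.168) without 1 library, the smallest without the P16 control library numbered 3, and the interaction was 0.50 (unadjusted p = 0.0077).

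Il6 (ENSMUSG00000025746, chromosome 5 of GRCm38, 30013114 to 30019981), a cytokine that acts through Il6ra and gp130, had 645, 943 and 1219 normalized reads in control mice, and 758, 672 and 611 in dMF1/2 mice at P14, and 3137, 1679 and 2117 normalized reads in control mice, and 1159, 1177 and 1650.3 in dMF1/2 mice at P16. The P16 control libraries were the 3 highest of the 12, although the lowest of them, 1679, was close to the highest P16 dMF1/2 library, 1650.3. Il6 rose 2.47-fold in control mice, a log2 change of 1.30 (SE 0.25, adjusted p = 0.00912 in limma), and the rise was 1.06 without both P14 libraries numbered 1 (adjusted p = 0.0326). In dMF1/2 mice the log2 change was 0.95 (adjusted p = 0.0511 in limma), again without overlap between the days. DESeq2 called this dMF1/2 change (0.97, adjusted p = 0.00644), and edgeR did not. The log2 ratio was -0.76 (SE 0.23, adjusted p = 0.111 in limma) at P16 and -0.41 (adjusted p = 0.809 in limma) at P14. Without 1 library the P16 log2 ratio ran from -0.97 to -0.52 (adjusted p = 0.0474 to 0.276), passing without the P16 control library numbered 2 and the smallest without the P16 control library numbered 1.

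Dissociation stress genes moved with Il6. Of 16 such genes, which include heat shock and immediate early genes, 6 rose in control mice (Atf3, Btg2, Dnajb1, Hspa1a, Hspa1b and Hsph1), 1 rose in dMF1/2 mice (Hsph1), and 1 (Atf3) was lower in dMF1/2 mice at P16, beside 6.26%, 1.83% and 2.14% of all genes. Their summed level was 281722 to 440229 normalized reads in P14 control libraries, 326344 to 377965 in P14 dMF1/2 libraries, 407702 to 600988 in P16 control libraries and 365998 to 408757 in P16 dMF1/2 libraries. The P16 control library with the highest sum, numbered 1, was also that with the most Il6, 3137 normalized reads. The part of dissociation in the Il6 values was not tested.

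**Figure D5:**
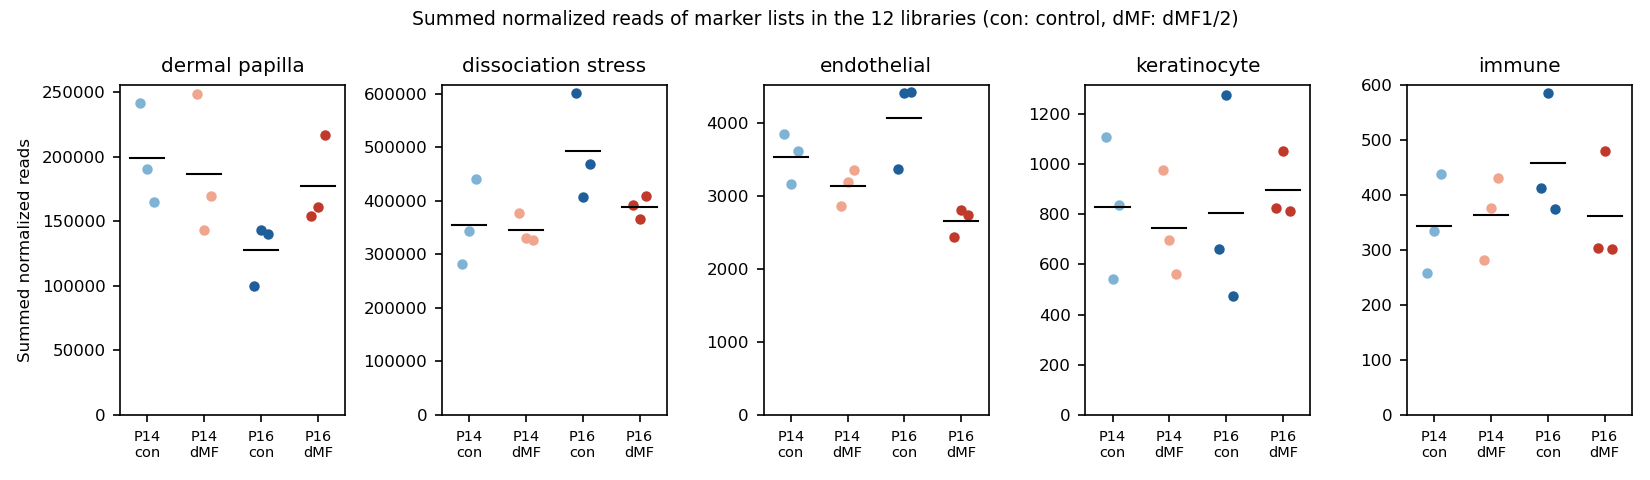
Summed normalized reads of 5 marker lists in each of the 12 libraries (points) with the mean of 3 libraries (lines), on linear axes that start at 0. The P16 control group has the lowest mean papilla sum and the highest stress and endothelial means, and the immune sums stay at 584 or below in all libraries.

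The other interleukins were less abundant. Il34, a ligand of the macrophage receptor Csf1r, and Il33, an alarmin read by Il1rl1, had means of 236 and 172 normalized reads, and Il17d had 188. Il7, a lymphocyte growth factor, had 56.8 ± 19.3 (SD, n = 3) in control and 25.5 ± 13.1 in dMF1/2 mice at P16, a log2 ratio of -1.18 (adjusted p = 0.15 in limma) with overlapping groups. Il15, Il1f9, Il19, Il10, Il18, Il11, Il12a and Il4 had means between 13.2 and 51.1, and Il17f had 6.87. Il12a had a log2 change of -1.37 (adjusted p = 0.0774 in limma) in control mice, and Il19 one of 1.14 (adjusted p = 0.122 in limma). Without 1 library these ran from -1.77 to -0.96 (adjusted p = 0.0416 to 0.241) and from 0.80 to 1.58 (adjusted p = 0.0455 to 0.349), passing without the P16 control library numbered 2 for Il12a and the P14 control library numbered 3 for Il19.

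The sequences before the start sites are shown for Il6 and Cxcl14, which moved in opposite directions in control mice, for Il1r1, the receptor called in both genotype and day comparisons, and for Cxcl1, a neighbour in level of Cxcl14. Each is the 250 bases that precede the RefSeq start site in GRCm38.p6, written 5′ to 3′ on the strand of the gene, at chr5:30012864-30013113 (plus strand) for Il6, chr5:90890995-90891244 (plus strand) for Cxcl1, chr13:56296552-56296801 (minus strand) for Cxcl14 and chr1:40224830-40225079 (plus strand) for Il1r1. Capitals mark matches to the motifs NF-kB (GGGA, any 2 bases, TTCC), AP-1 (TGANTCA) and C/EBP (TTGNNCAA).
Il6: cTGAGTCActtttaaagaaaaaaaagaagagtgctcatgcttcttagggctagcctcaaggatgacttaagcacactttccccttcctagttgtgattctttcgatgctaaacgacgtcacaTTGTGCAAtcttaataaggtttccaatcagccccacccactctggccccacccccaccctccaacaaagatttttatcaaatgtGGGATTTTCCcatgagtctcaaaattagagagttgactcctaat
Cxcl1: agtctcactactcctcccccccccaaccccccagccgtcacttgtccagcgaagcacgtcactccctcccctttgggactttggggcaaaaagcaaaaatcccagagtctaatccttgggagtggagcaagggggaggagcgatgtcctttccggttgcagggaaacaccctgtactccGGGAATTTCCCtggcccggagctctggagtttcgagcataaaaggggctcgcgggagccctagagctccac
Cxcl14: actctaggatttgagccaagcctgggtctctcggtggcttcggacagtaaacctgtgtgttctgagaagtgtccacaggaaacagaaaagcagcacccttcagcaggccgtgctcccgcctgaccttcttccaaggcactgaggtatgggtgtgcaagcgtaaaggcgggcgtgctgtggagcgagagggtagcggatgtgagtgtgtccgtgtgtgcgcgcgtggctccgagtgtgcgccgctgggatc
Il1r1: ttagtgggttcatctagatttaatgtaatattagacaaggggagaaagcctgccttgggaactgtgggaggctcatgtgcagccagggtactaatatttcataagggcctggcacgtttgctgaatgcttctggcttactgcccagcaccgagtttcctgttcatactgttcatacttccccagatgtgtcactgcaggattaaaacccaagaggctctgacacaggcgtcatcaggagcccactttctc

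RefSeq promoters of 250 bases before to 50 after the start, 77 in all, were matched for 60 of the 78 genes, and the motifs were searched on both strands of these 300 bases. Ccl2, Ccl7, Cxcl5 and Il17ra were among the 18 genes without a match. The NF-kB letters were found in 6.49% of the 77 promoters and in 1.47% of all 32851 promoters, in Cxcl1, Cxcl2, Cxcl10, Il6 and Il16. Counted from the start site, with -1 the base before it, the first base of the match was at -44 in Il6 (GGGATTTTCC), -71 in Cxcl1 (GGGAATTTCC), -97 in Cxcl2 (GGGAATTTCC) and -159 in Cxcl10 (GGGAAATTCC), and in Cxcl1 and Cxcl2 a second match on the other strand began 1 base closer to the start. The AP-1 letters were found in 16.9% of the 77 promoters, 13 genes in all, against 7.81% of all promoters, with a match at -74 in Cxcl10 and one at the far end of the Il6 window. C/EBP letters were found in 6.49% against 6.4%, with a match at -128 in Il6. The further motifs CRE (TGACGTCA) and TCF/LEF (CTTTGAT) were in 0% and 3.9% of the 77 promoters and in 1.79% and 3.73% of all. No match of NF-kB, AP-1 or C/EBP letters lay in the windows of Cxcl14 and Il1r1. These matches are descriptions of letters, and the motifs of Il16 other than AP-1 lay in promoters away from the start site used here.

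Among the chemokine receptors, Cxcr4 (ENSMUSG00000045382, chromosome 1 of GRCm38, 128588199 to 128592293), the receptor of Cxcl12, was the only one above 100 normalized reads. It had 299, 539 and 454 normalized reads in control mice, and 578, 821 and 722 in dMF1/2 mice at P14, and 872, 637 and 922 normalized reads in control mice, and 776, 840.4 and 857 in dMF1/2 mice at P16. The 3 P14 control libraries were the lowest of the 12, and the genotypes overlapped at P16. Cxcr4 rose 1.91-fold in control mice from P14 to P16, a log2 change of 0.93 (SE 0.21, adjusted p = 0.0156 in limma), and 0.69 without both P14 libraries numbered 1 (adjusted p = 0.0296). The call was lost without the P16 control library numbered 1 or 3 (adjusted p = 0.0621 and 0.0586) and in a fit of the 6 control libraries (0.0599). In dMF1/2 mice the log2 change was 0.24 (adjusted p = 0.553 in limma). At P14 the log2 ratio was 0.74 (SE 0.23, adjusted p = 0.484 in limma), and at P16 0.05 with a 95% interval of -0.27 to 0.37.

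Markers of endothelial cells, another cell type known to make Cxcr4, were present. Of 12 endothelial markers, Emcn, Esam and Vwf rose and Tek fell in control mice from P14 to P16, and Eng and Plvap were lower in dMF1/2 mice at P16. Those are 4 and 2 of the 12, where 14.5% and 4.32% of all genes were called. Their summed level was 3163 to 3850 normalized reads in P14 control libraries, 2863 to 3359 in P14 dMF1/2 libraries, 3371 to 4431 in P16 control libraries and 2445 to 2807 in P16 dMF1/2 libraries. The part of endothelial RNA in the Cxcr4 values was not tested.

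The atypical receptors did not pass limma's test in any comparison without the block. Ackr3, which scavenges Cxcl12, had 2099, 2386 and 2848 normalized reads in control mice and 1759.5, 2437 and 2296 in dMF1/2 mice at P14, and 2946, 2457 and 2763 in control mice and 2274, 2369.8 and 2510.3 in dMF1/2 mice at P16. Its groups overlapped on both days, with a log2 ratio of -0.18 at P16 (95% interval -0.39 to 0.03). Ackr4, which scavenges Ccl19, Ccl21 and Ccl25, had 1897, 1533 and 1206 normalized reads in control mice and 1464, 918 and 984 in dMF1/2 mice at P14, and 1057, 1069.5 and 632 in control mice and 1430.0, 1054 and 833 in dMF1/2 mice at P16. Its P16 control libraries lay below its P14 control libraries, with a log2 change of -0.76 (SE 0.27, adjusted p = 0.0741 in limma), and in dMF1/2 mice the days overlapped. DESeq2 called this control change (-0.75, adjusted p = 0.0369). Ackr1, a receptor that binds many chemokines without signalling and is known from venules and red cells, had a mean of 519.8 normalized reads, and Ackr2, a scavenger of inflammatory CC chemokines, had 318.

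In the IL-1 receptor family, Il1r1 (ENSMUSG00000026072, chromosome 1 of GRCm38, 40225080 to 40317257), the signalling receptor of IL-1, had 831, 854 and 1054 normalized reads in control mice, and 801, 892 and 899 in dMF1/2 mice at P14, and 1649.6, 1492 and 1464 normalized reads in control mice, and 1182, 1059.7 and 980.4 in dMF1/2 mice at P16. The P16 control libraries were the 3 highest of the 12, and the P14 groups overlapped. Il1r1 rose 1.69-fold in control mice, a log2 change of 0.76 (SE 0.11, adjusted p = 0.00225 in limma), and the call was kept without any single library and without both P14 libraries numbered 1 (0.69, adjusted p = 0.0104). In dMF1/2 mice the log2 change was 0.31 (adjusted p = 0.111 in limma), without overlap. At P16 Il1r1 was lower in dMF1/2 mice, a log2 ratio of -0.51 (SE 0.10, adjusted p = 0.0281 in limma), where at P14 it was -0.07 with a 95% interval of -0.34 to 0.20. The P16 call was lost without the P16 control library numbered 1 (adjusted p = 0.0763) or 3 (0.0743) and without the dMF1/2 library numbered 2 (0.0795) or 3 (0.108).

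Il1rap (ENSMUSG00000022514, chromosome 16 of GRCm38, 26581704 to 26730117), the accessory chain that Il1r1, Il1rl1 and Il1rl2 share, had 3009, 3262 and 3616 normalized reads in control mice, and 2063, 1966 and 2463 in dMF1/2 mice at P14, and 2913, 4352 and 4119 normalized reads in control mice, and 4509, 3202 and 4172 in dMF1/2 mice at P16. The 3 P14 dMF1/2 libraries were the lowest of the 12, and at P16 the genotypes overlapped. Il1rap rose 1.82-fold in dMF1/2 mice from P14 to P16, a log2 change of 0.86 (SE 0.17, adjusted p = 0.0132 in limma), and the log2 change was 0.19 (adjusted p = 0.475 in limma) in control mice. This call was lost without the P14 dMF1/2 library numbered 2 (adjusted p = 0.058) and without the P16 dMF1/2 library numbered 1 (0.0694) or 3 (0.0574). At P14 its log2 ratio was -0.61 (SE 0.12, adjusted p = 0.243 in limma), and at P16 0.08 with a 95% interval of -0.34 to 0.49.

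Il1r2 (ENSMUSG00000026073, chromosome 1 of GRCm38, 40074079 to 40125231), a decoy receptor that binds IL-1 without signalling, had 322, 954 and 728 normalized reads in control mice, and 528, 1067 and 834 in dMF1/2 mice at P14, and 1211, 1801 and 1611 normalized reads in control mice, and 1461, 1717 and 1307 in dMF1/2 mice at P16. All 6 P16 libraries were above all 6 P14 libraries, and the lowest P14 values were those of the libraries numbered 1. Il1r2 rose 2.50-fold in control mice, a log2 change of 1.32 (SE 0.35, adjusted p = 0.0312 in limma), and 0.87 without both P14 libraries numbered 1 (adjusted p = 0.0296). The call was lost without the P14 control library numbered 1 alone (log2 change 0.87, adjusted p = 0.0831) and without the P16 control library numbered 1 (0.0573), 2 (0.0777) or 3 (0.084). In dMF1/2 mice the log2 change was 0.93 (adjusted p = 0.142 in limma), and the log2 ratio was -0.03 at P16 (95% interval -0.40 to 0.34).

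Il1rl2, the IL-36 receptor, had 927, 1302 and 1187 normalized reads in control mice and 991, 1395 and 1236 in dMF1/2 mice at P14, and 1693, 1458 and 1366 in control mice and 1394, 1333 and 1097 in dMF1/2 mice at P16. The genotypes overlapped on both days, and the log2 change in control mice was 0.41 (adjusted p = 0.0984 in limma) without overlap. It ran from 0.27 to 0.52 (adjusted p = 0.0707 to 0.313) without 1 library, the smallest without the P14 control library numbered 1. Il1r2, Il1r1, Il1rl2, Il1rl1 and Il18r1 lie in this order within 427 kb of chromosome 1, and the first 3 had log2 changes of 1.32, 0.76 and 0.41 in control mice. Il1rl1 (the IL-33 receptor) and Il18r1 had means of 6.45 and 3.93 normalized reads and were not tested. The secreted inhibitors Il1rn and Il1f10 had means of 2.60 and 3.59. Il18bp, which binds IL-18, had 31.1, 13 and 14.8 normalized reads in control mice and 17, 25.8 and 33.6 in dMF1/2 mice at P14, and 26.7, 27.5 and 31 in control mice and 53.9, 45.9 and 41.5 in dMF1/2 mice at P16, and each P16 dMF1/2 library was above each P16 control library, a log2 ratio of 0.71 (SE 0.21, adjusted p = 0.106 in limma). Il1rapl1, a synaptic member of the family, had 5.66, 16.3 and 5.93 normalized reads in control mice and 8.52, 23.7 and 6.73 in dMF1/2 mice at P14, and 5.16, 4.08 and 9.01 in control mice and 13.7, 11.9 and 23.9 in dMF1/2 mice at P16. Its P16 groups were apart (log2 ratio 1.31 (adjusted p = 0.154 in limma)), with no library above 23.9 normalized reads.

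Among receptors of the IL-6 family, Il6st (gp130), the shared signalling chain, had the most reads of all 78 genes. It had 11930.3, 11911 and 12819 normalized reads in control mice and 14449.5, 14939 and 14172 in dMF1/2 mice at P14, and 13758, 15463 and 14726 in control mice and 17658, 17720.2 and 17076 in dMF1/2 mice at P16. The dMF1/2 libraries lay above the control libraries on both days without overlap, but by little, with log2 ratios of 0.25 (SE 0.10, adjusted p = 0.651 in limma) at P14 and 0.26 (SE 0.10, adjusted p = 0.186 in limma) at P16. From P14 to P16 Il6st had a log2 change of 0.26 (adjusted p = 0.065 in limma) in control mice and 0.27 (adjusted p = 0.0925 in limma) in dMF1/2 mice, with no overlap between the days in either genotype. DESeq2 called both changes of Il6st (adjusted p = 0.00106 in control and 0.00149 in dMF1/2 mice), and edgeR called neither. Il6ra, the ligand-binding chain for IL-6, had 1123, 723 and 1163 normalized reads in control mice, and 721, 495 and 599 in dMF1/2 mice at P14, and 1658, 1236 and 1518 normalized reads in control mice, and 1128, 732 and 757 in dMF1/2 mice at P16. Here each dMF1/2 library lay below each control library of its day, at P14 by as little as 721 against 723, with log2 ratios of -0.71 (SE 0.21, adjusted p = 0.456 in limma) at P14 and -0.76 (SE 0.18, adjusted p = 0.0575 in limma) at P16. Without 1 library the P16 ratio ran from -0.97 to -0.65 (adjusted p = 0.0209 to 0.18), passing without the P16 dMF1/2 library numbered 1 or the control library numbered 2. From P14 to P16 Il6ra had a log2 change of 0.57 (adjusted p = 0.099 in limma) in control mice, which ran from 0.35 to 0.70 (adjusted p = 0.0784 to 0.283) without 1 library, the smallest without the P14 control library numbered 2. The dMF1/2 change was 0.51 (adjusted p = 0.187 in limma) and ran from 0.32 to 0.65 (adjusted p = 0.133 to 0.522), the smallest without the P16 dMF1/2 library numbered 1.

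Il11ra1, the ligand-binding chain for IL-11, had 1266, 1328 and 1611 normalized reads in control mice and 1419, 1780.1 and 1774 in dMF1/2 mice at P14, and 1444, 1466 and 1222 in control mice and 1371, 1438 and 1097 in dMF1/2 mice at P16, and its groups overlapped on both days. It overlaps Ccl27a on the other strand by 8 bases, and its reads may be shared with near-identical copies on chromosome 4. Il31ra, a receptor of the itch cytokine IL-31 and a neighbour of Il6st on chromosome 13, had 43.4, 29.4 and 32.6 normalized reads in control mice and 78.4, 46.3 and 50.5 in dMF1/2 mice at P14, and 43.9, 35.7 and 53.1 in control mice and 60.2, 68.8 and 40.5 in dMF1/2 mice at P16. At P14 each dMF1/2 library of Il31ra was above each control library, a log2 ratio of 0.70 (SE 0.28, adjusted p = 0.636 in limma), and at P16 the groups overlapped.

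Il17ra (ENSMUSG00000002897, chromosome 6 of GRCm38, 120463247 to 120487559), the shared receptor chain of the IL-17 family, had 1337, 1146 and 1091 normalized reads in control mice, and 945, 758 and 673 in dMF1/2 mice at P14, and 1397, 1206 and 1446 normalized reads in control mice, and 1029.8, 743 and 944 in dMF1/2 mice at P16. The dMF1/2 libraries lay below the control libraries on both days without overlap. The log2 ratios were -0.59 (SE 0.14, adjusted p = 0.309 in limma) at P14 and -0.58 (SE 0.13, adjusted p = 0.0549 in limma) at P16, where the adjusted p was just above the threshold. Its partner chain Il17rc had a mean of 448 normalized reads and a log2 ratio of -0.07 at P16 (95% interval -0.49 to 0.36).

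Of the IL-4 and IL-13 receptors, Il4ra had 687, 1179.8 and 1002 normalized reads in control mice and 725, 1145 and 846 in dMF1/2 mice at P14, and 1049.8, 1114 and 1369.9 in control mice and 907, 979 and 950.3 in dMF1/2 mice at P16. The groups were apart at P16, with a log2 ratio of -0.30 (SE 0.11, adjusted p = 0.184 in limma), and overlapped at P14. The P16 ratio ran from -0.38 to -0.19 (adjusted p = 0.152 to 0.414) without 1 library, the smallest without the P16 control library numbered 3. Il13ra1, its partner in the IL-13 receptor, had 955, 1593 and 1379.6 normalized reads in control mice and 1112, 1467 and 1273 in dMF1/2 mice at P14, and 1951, 1916 and 1581 in control mice and 1623, 1849 and 1273 in dMF1/2 mice at P16, with overlapping groups and a log2 ratio of -0.20 at P16. The decoy Il13ra2 had 5.66, 13 and 18.8 normalized reads in control mice and 7.67, 15.1 and 5.61 in dMF1/2 mice at P14, and 21.5, 15.3 and 23 in control mice and 11.6, 10.1 and 4.15 in dMF1/2 mice at P16, and its P16 dMF1/2 libraries were below its P16 control libraries, a log2 ratio of -1.20 (adjusted p = 0.181 in limma) at 23 normalized reads or fewer. Without 1 library this ratio ran from -1.45 to -0.80 (adjusted p = 0.185 to 0.409 in limma). Il10rb, a chain shared by receptors of the IL-10 family, had 226, 195 and 211 normalized reads in control mice and 357, 264 and 239 in dMF1/2 mice at P14, and 174, 181 and 194 in control mice and 215, 247 and 226 in dMF1/2 mice at P16. Its dMF1/2 libraries were above its control libraries on both days, with log2 ratios of 0.43 (adjusted p = 0.628 in limma) at P14 and 0.33 (adjusted p = 0.151 in limma) at P16. The P14 ratio ran from 0.26 to 0.54 (adjusted p = 0.702 to 0.999) without 1 library, the smallest without the P14 dMF1/2 library numbered 1. The remaining tested interleukin receptors, Il3ra, Il15ra, Il20rb, Il5ra, Il2ra, Il10ra and Il12rb2, had means between 11 and 225 and passed in none of the 5 comparisons in limma without the block.

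Marker genes of immune cells, which carry many of these receptors, had few reads. Of 25 immune markers, 13 were in both tables, and their summed level was 259 to 439 normalized reads in P14 control libraries, 282 to 431 in P14 dMF1/2 libraries, 375 to 584 in P16 control libraries and 301 to 479 in P16 dMF1/2 libraries. The pan-leukocyte marker Ptprc had 0 to 10.2 normalized reads, and Cd3e, Itgam, Tyrobp, C1qa and Cpa3 were not in both tables. The antigen presentation genes Cd74 and H2-Aa had 24.3 to 103 and 22.8 to 77.5 normalized reads and the macrophage marker Cd68 had 10.1 to 45.1, in the range of low genes of the set such as Cxcr2. Of the 6 tested at P14 and the 7 tested in the other comparisons, 0 were called in limma and 0 had an unadjusted p under 0.05. Keratinocyte markers summed to 475 to 1277 normalized reads, with 1 of 13 tested (Lgals7) higher at P16 in control mice, and melanocyte markers to 514 to 903, with 1 of 3 tested (Mitf) higher at P16 in control mice, beside 6.26% of all genes. Most of the melanocyte sum was Mitf, with group means of 540 to 771 normalized reads. The melanocyte markers Dct and Tyrp1 had at most 11.9 and 7.91 in any library. The part of these cells in the values above was not tested.

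Genes that act downstream of these receptors were read from lists. Of 31 tested cytokine signal transducers, 2 differed at P16, Jak2, a kinase bound to cytokine receptors, which was lower in dMF1/2 mice (log2 ratio -0.94, adjusted p in limma = 0.0272), and Stat5b, which was higher (0.39, 0.0352). In control mice 3 of the 31 rose from P14 to P16, Jak1 (0.34), Jak2 (0.90) and the feedback inhibitor Socs4 (0.36), and in dMF1/2 mice 2 rose, Jak1 (0.25) and Socs4 (0.37). Over all genes, 4.32% were called at P16, 6.26% rose in control mice and 1.83% rose in dMF1/2 mice, so that the P16 count was near the background. Their median log2 ratio was -0.02 at P16, beside -0.0043 over all genes.

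Of 18 NF-kB factors and feedback genes, Birc3 (0.91), Nfkb1 (0.52) and the inhibitor Tnfaip3 (1.05) rose in control mice and Birc3 (0.64) in dMF1/2 mice, while 0 of 18 differed at P14 or P16 in limma, where 0.0525% and 4.32% of all genes did. At an unadjusted p under 0.05 there were 2 and 3 of the 18, against 7.32% and 19% of all genes. Their median log2 change was 0.26 in control and 0.23 in dMF1/2 mice. Of 18 interferon-stimulated genes, Gbp2 (0.50) and Irf1 (0.86) rose in control mice. These counts of 3 and 2 of 18 in control mice and 1 of 18 in dMF1/2 mice stand beside 6.26% and 1.83% of all genes. Of 19 inflammatory target genes tested at P16, 3 were lower in dMF1/2 mice, namely Lcn2 (-2.93, adjusted p = 0.0419), an iron-binding protein, Ptges (-1.22, 0.014), a prostaglandin E synthase, and Tnfaip6 (-0.66, 0.0382), a hyaluronan-binding protein, where 2.14% of all genes were lower. Tnfaip6 (1.02) and the adhesion molecule Icam1 (1.07) rose in control mice, and Icam1 (1.01) also in dMF1/2 mice, 2 and 1 of the 18 tested there beside 6.26% and 1.83% of all genes. Of 31 other cytokines and receptors tested at P16, such as the TNF and CSF families, Mif alone was called, lower in dMF1/2 mice (-0.62, adjusted p = 0.044), beside 4.32% of all genes. At P14, 0 genes of these 5 lists passed in limma (0.0525% of all genes). In the order given 3 of 31, 2 of 18, 0 of 18, 4 of 18 and 1 of 29 tested had an unadjusted p under 0.05, against 7.32% of all genes.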

How the data were processed

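RNA of DP cells sorted for YFP was measured by RNA-seq after ribosomal depletion, in 3 mice per genotype and day. The authors trimmed reads with Trimmomatic, mapped them with TopHat2 to mm10, counted them per gene with HTSeq and scaled them with DESeq2. The deposited tables hold this signal, reads divided by size factors over the 6 libraries of a day, for 15209 genes at P14 and 15334 at P16. All values (100%, relative tolerance 1e-06) were whole multiples of 1 constant per library, so whole reads were recovered. The authors' own fold changes, test statistics and p-values in these tables were not used.

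Genotypes were compared within a day in the deposited scaling. For levels and day changes, recovered reads of the 14986 shared genes were rescaled over 12 libraries by median of ratios. Day changes and the interaction were fitted over all 12 libraries with a shared spread. Tests used limma 3.58.1 in R 4.3.3 (mean-variance trend) on log2(value + 1) of genes whose mean was 10 or more, with Benjamini-Hochberg adjustment over all genes and a threshold of 0.05. Fold changes understate those of low genes. Exact permutation tests of 3 against 3 cannot go below p = 0.1, the value for every pair of groups that did not overlap. DESeq2 1.42.0 and edgeR 4.0.16 were run on the recovered reads. All 3 tools were tested on simulated data made for the P16 comparison and the control change.

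Deviations of same-numbered libraries correlated across genes at 0.586, 0.389 and 0.304 at P14 and 0.256, 0.293 and 0.311 at P16, so the number was used as a block in the genotype comparisons. The interaction used the number within a day. The day changes used the number as a block shared by both days.

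Members and lists were chosen with earlier results of these data known. Per-library values are given for genes called in a comparison, genes with an unadjusted p under 0.05 and groups apart in a genotype comparison, and the 15 with the most reads. Exon lengths came from GENCODE vM21. Other days were not analysed here.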

Additional observations from a re-analysis of the deposited data

How the results depend on the processing

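Among the 78 genes, counts of calls moved with the test. DESeq2 called 1 gene at P14, 9 at P16, 9 in the control change and 4 in the dMF1/2 change, against 0, 3, 5 and 1 in limma. Blocking on the replicate number gave 4, 10, 8 and 4 calls in limma, and edgeR with the replicate block, chosen after seeing the data, 5, 10, 8 and 3. Same-numbered libraries did not deviate together across days (correlations of -0.0545, -0.0621 and -0.130 for control mice, 0.0292, 0.208 and -0.162 for dMF1/2 mice), so the blocked counts of the day changes rest on a shared number alone. A fit of the 6 compared libraries called 3 genes in the control change (Cxcl14, Il1r1 and Il6) and 2 in the dMF1/2 change (Il1rap and Il6). Without both P14 libraries numbered 1, chosen after seeing the data, 3 were called in the dMF1/2 change (Cxcl14, Il1rap and Il6). Leaving out 1 library gave 0 calls at P14, 2 to 7 at P16, 3 to 6 in the control change, 0 to 4 in the dMF1/2 change and 0 in the interaction. The 7 came without the P16 control library numbered 2, which added Ccl2, Ccl7, Il6 and Il6ra. The dMF1/2 count was 0 without the P16 dMF1/2 library numbered 1 or 3 and 4 without the P14 control library numbered 1 (Cxcl14, Il1r2, Il1rap and Il6). Without the P14 dMF1/2 library numbered 2 the gene called was Ccl28 (4.11, adjusted p = 0.00465), which had 0 and 1.70 normalized reads in the other P14 dMF1/2 libraries. The 3 counts at P16 and the 5 in the control change came out at 3 or 2 and at 5 or 6 under edgeR, TMM scaling, pseudocounts of 0.1 and 10, no filter, and a joint fit or the fit without both P14 libraries numbered 1. The 58 results of single genes followed here were those with an unadjusted p under 0.05 in limma. Of their 1103 alternatives, 1022 kept the direction and the side of the threshold, 65 gained a call, 16 lost one and 0 changed direction. This selection made a change of direction unlikely, and most of the 58 were uncalled. In day changes, leaving out a library of the other genotype kept the same estimate. The tally therefore does not measure robustness. The cause of the moves between settings was not tested. The depth left 17 of the 78 genes with 3 reads or fewer in at least 1 library, which limits what could be detected for them.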
